A study of Mus musculus with 6 samples.

Results

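The genes described here are 48 genes of DNA replication and S phase, the part of the cell cycle in which the genome is copied. They were chosen by symbol from what their proteins do, with earlier results of these data known. All 48 were found among the 53445 loci of the deposited table, and all 48 passed the filter on low counts that left 22032 loci to be tested. RNA-Seq was performed on LSK cells, the Lin-Sca+Kit+ fraction of bone marrow that holds hematopoietic stem cells and multipotent progenitors. The cells were sorted from female C57BL/6 mice aged about 12 weeks, with no treatment named in the labels. 3 libraries came from OgaVav-Cre mice, in which a floxed allele of Oga was deleted by the Vav-iCre transgene, and 3 came from wildtype mice. The Vav promoter drives Cre across the hematopoietic lineage, so that the deletion was not limited to LSK cells, and the wildtype label names no floxed allele or Cre. Each library was made from the cells of 1 mouse, and p-values measure the spread between these mice. Oga encodes the enzyme that removes O-GlcNAc from proteins, and the table lists it under its former symbol Mgea5. As a check of the labels, the OgaVav-Cre mean of Mgea5 was 4.31 CPM (SD 0.299, n = 3) and the wildtype mean was 139 CPM (SD 20.7, n = 3). CPM stands for counts per mega-read of a library after scaling by edgeR's TMM factors. The libraries held 19318056 to 27064389 reads, and a member locus had from 132 to 7811 reads in a library.

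DNA is copied once per cell cycle because origins are licensed before S phase and fired within it. The origin recognition complex, CDC6 and CDT1 load the ring of MCM2 to MCM7 onto DNA, and CDC45 and the GINS complex turn this ring into the active helicase. Transcription of many of these genes is switched on by E2F factors as cells pass from G1 to S phase, so their RNA is abundant in cycling progenitors and scarce in quiescent stem cells.

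The promoter sequences of the members were searched for 8-base words of E2F binding, a feature that the choice of genes did not use. RefSeq promoter windows on build GRCm38.p6, from 250 bases before to 50 after the start site, were found for 39 of the 48 members in 47 windows. The words TTTCCCGC, TTTGGCGC, TTTGCCGC and TTTCGCGC were searched on both strands, and words on opposite strands can overlap. At least 1 word was present in 15 of the 47 windows (31.9%), against 2.26% of all 32851 windows. 5 member windows (10.6%) held more than 1 word, against 0.0974% of all windows. TTTGGCGC and TTTCGCGC were each found in 7 member windows (14.9%), against 0.514% and 0.323% of all windows, and TTTGCCGC was found in none. The words were found in 11 of 40 windows (27.5%) of other replication genes and in 7 of 24 windows (29.2%) of regulators of G1 and S phase. They were found in 1 of 18 windows (5.56%) of mitosis genes. A word is a match of letters, not a measured binding site. The stretches of the 5 origin licensing genes with a word wholly upstream of the start site are shown, since the MCM genes are followed library by library in the values that come next. They are read 5′ to 3′ on the strand of the gene, with the words in capitals.
Orc1, chr4:108579397-108579453, plus strand: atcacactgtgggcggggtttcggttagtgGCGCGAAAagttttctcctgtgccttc
Cdc6, chr11:98907983-98908050, plus strand: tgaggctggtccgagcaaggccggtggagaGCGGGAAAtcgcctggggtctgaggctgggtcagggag
Mcm5, chr8:75109326-75109397, plus strand: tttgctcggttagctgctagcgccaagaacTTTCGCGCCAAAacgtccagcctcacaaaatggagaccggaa
Mcm6, chr1:128359715-128359845, minus strand: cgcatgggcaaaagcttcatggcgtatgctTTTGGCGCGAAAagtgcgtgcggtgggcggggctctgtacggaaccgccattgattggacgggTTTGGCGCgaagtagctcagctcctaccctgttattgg
Mcm7, chr5:138172011-138172078, minus strand: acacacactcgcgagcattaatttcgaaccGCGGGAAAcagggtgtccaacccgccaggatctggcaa
In Mcm5 and in the first run of capitals in Mcm6, 2 different words on opposite strands overlapped. The word of Orc1 began at position -27 from the start site and that of Mcm7 at -165. Gins3, Pola1, Rfc3 and Uhrf1 also held a word wholly upstream of the start site.

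The first question was how the members varied among mice of 1 genotype. After TMM scaling they were nearly level across the 3 OgaVav-Cre libraries and spread widely across the 3 wildtype libraries. The levels of the 48 members summed to 3973, 4178 and 3998 CPM in OgaVav-Cre replicates 1, 2 and 3. The sums were 4605, 2716 and 3151 CPM in wildtype replicates 1, 2 and 3. Wildtype replicate 1 thus lay above every OgaVav-Cre library and both other wildtype libraries lay below them, so the genotypes overlapped. The highest sum was 1.05 times the lowest within OgaVav-Cre and 1.70 times the lowest within wildtype. As a share of all reads, without TMM factors, the members held 0.356%, 0.405% and 0.405% in OgaVav-Cre replicates 1, 2 and 3. In wildtype replicates 1, 2 and 3 they held 0.477%, 0.271% and 0.343%. OgaVav-Cre replicate 1 was thus below the other OgaVav-Cre libraries on this scale.

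The coefficient of variation (CV, SD over mean of the CPM) had a median over the members of 8.55% in OgaVav-Cre and 26.9% in wildtype cells. Over all loci tested these medians were 17.9% and 18.3%. The CV was larger in wildtype for 43 of the 48 members (89.6%), against 48.1% of all loci. The other 5 were Pold2, Rfc2, Rfc3, E2f2 and Chaf1b. With 3 mice a group, each CV rests on few values, and no test of the difference in spread was made.

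The log2 level of each member was next set against the mean of its own genotype. The median over the members was 0.41 in wildtype replicate 1, -0.29 in replicate 2 and -0.12 in replicate 3. In OgaVav-Cre replicates 1, 2 and 3 it was -0.0033, 0.065 and -0.035. Over all loci these medians lay between -0.012 and 0.0048 in the 6 libraries. Wildtype replicate 1 had the highest value of its genotype for 46 of 48 members (95.8%, against 34.4% of all loci), and the exceptions were Gins2 and Rfc2. It was the highest of all 6 libraries for 30 members (62.5%, against 14.6% of all loci). Wildtype replicate 2 was the lowest of all 6 for 33 members (68.8%, against 16.7% of all loci). All 3 OgaVav-Cre values fell within the wildtype range for 27 members (against 15.5% of all loci), and all 3 exceeded wildtype replicates 2 and 3 for 37 members (against 17.7%). Members share libraries and are regulated together, so these are counts over genes within 6 mice and not replicates.

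**Figure D1:**
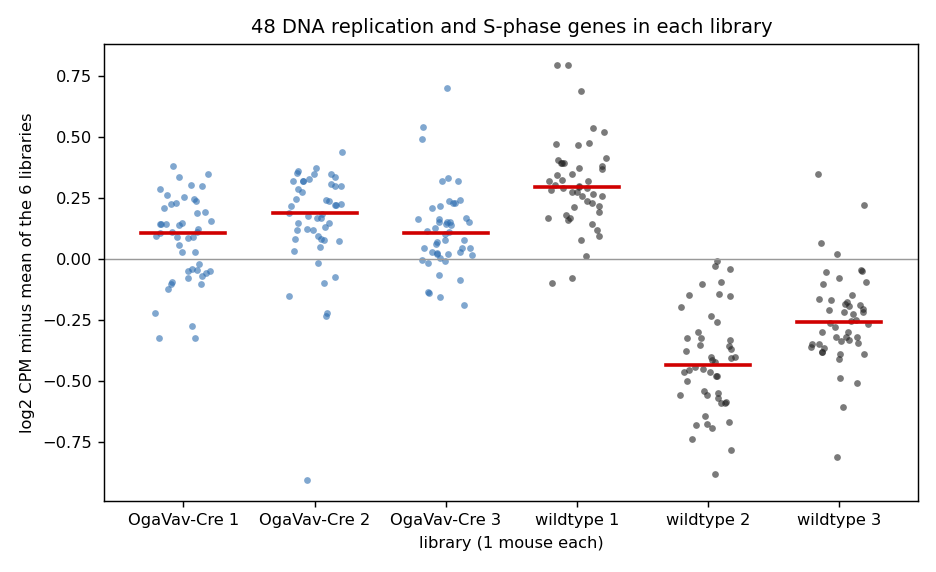
Log2 CPM (with 0.5 added) of each of the 48 members minus its mean over the 6 libraries, by library; each point is 1 gene, blue for OgaVav-Cre and black for wildtype, and the red line is the median. The 3 OgaVav-Cre libraries lie close together, whereas wildtype replicate 1 lies above them, with the highest value of the 6 libraries for 30 members, and replicate 2 lies below them, with the lowest for 33.

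The 12 genes of origin licensing comprise the origin recognition subunits Orc1, Orc2 and Orc6, the loading factors Cdc6 and Cdt1, the CDT1 inhibitor Gmnn, and the helicase subunits Mcm2 to Mcm7. The CV was larger in wildtype for all 12, and wildtype replicate 1 was the highest wildtype library for all 12. Per kilobase of locus length, the MCM subunits differed although they form 1 ring, but these values depend on the length annotated for each locus. Mcm2 and Mcm5 had close OgaVav-Cre means of 178.6 and 180.3 CPM, at annotated lengths of 6330 and 3498 bases. In OgaVav-Cre cells the level was 64.9 ± 6.996 CPM per kb (SD, n = 3) for Mcm6, 52.6 ± 4.99 for Mcm3 and 51.6 ± 3.77 for Mcm5. It was 37.2 ± 5.75 for Mcm7, 29.5 ± 1.03 for Mcm4 and 28.2 ± 1.72 for Mcm2 (SD, n = 3). Mcm3 and Mcm5, and Mcm4 and Mcm2, differed by less than the larger of their SDs, and the order was the same by the wildtype means.
Mcm2 was at 179.6, 189.0 and 167 CPM in OgaVav-Cre replicates 1, 2 and 3 and at 199, 111 and 143 CPM in wildtype replicates 1, 2 and 3. Mcm4 was at 173, 162 and 170.4 CPM in OgaVav-Cre and at 187, 101 and 135 CPM in wildtype libraries. Mcm5 was at 172, 196 and 173 CPM in OgaVav-Cre and at 198, 97.5 and 127 CPM in wildtype libraries. For these 3 subunits wildtype replicate 1 was above every OgaVav-Cre library and wildtype replicates 2 and 3 were below every one. Mcm3 was at 212, 222 and 184 CPM in OgaVav-Cre and at 219, 137 and 146 CPM in wildtype libraries. Mcm6 was at 293, 309 and 249.9 CPM in OgaVav-Cre and at 337, 240.1 and 237 CPM in wildtype libraries. Mcm7 was at 173, 185 and 136 CPM in OgaVav-Cre and at 165, 105 and 121 CPM in wildtype libraries. Wildtype replicate 1 was again the highest wildtype library for each, but for Mcm3 and Mcm7 OgaVav-Cre replicate 2 was the highest of all. The OgaVav-Cre to wildtype log2 fold changes ran from 0.07 (SE 0.177) for Mcm6 to 0.36 (SE 0.246) for Mcm5, and the 6 adjusted p-values from edgeR's quasi-likelihood test lay between 0.564 and 0.912. 
Cdt1 was at 72.5, 70.4 and 63.8 CPM in OgaVav-Cre and at 66.4, 39.8 and 50.8 CPM in wildtype libraries. Wildtype replicate 1 fell among the OgaVav-Cre values, and the log2 fold change was 0.40 (SE 0.187, edgeR adjusted p = 0.492). Gmnn had a similar value of 0.40 (SE 0.290, edgeR adjusted p = 0.625). Orc1, the rarest member per length at 2.12 ± 0.333 CPM per kb in OgaVav-Cre and 2.43 ± 0.438 in wildtype cells (SD, n = 3), was the 1 gene of this group with a negative value, at -0.20 (SE 0.210).

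Among the 6 genes of helicase activation, Mcm10, Cdc45 and the GINS subunits Gins1, Gins2, Gins3 and Gins4, the CV was larger in wildtype for all 6. Gins2 was the exception to the wildtype pattern of levels. It was at 106, 108 and 98.5 CPM in OgaVav-Cre and at 117, 102 and 128 CPM in wildtype libraries. Here wildtype replicate 3 was the highest, and Gins2 had the smallest CV of all members when the larger CV of the genotypes is taken, at 11.2%. The Gins2 locus overlaps Gse1 on the opposite strand, and the sources do not state whether strand was used in counting. The log2 fold changes of the 6 genes ran from -0.15 (SE 0.124) for Gins2 to 0.42 (SE 0.276) for Mcm10, with an edgeR adjusted p of 0.598 or more.

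The polymerases and primase comprise Pola1, Pola2, Prim1 and Prim2, which start each new strand, Pold1 and Pold2 of polymerase delta, and Pole and Pole2 of polymerase epsilon. Pold2, an accessory subunit of polymerase delta (minus strand, chr11:5772183-5778295 in mm9), was at 57.8, 60.2 and 45.2 CPM in OgaVav-Cre and at 41.3, 34.03 and 33.9 CPM in wildtype libraries. Every OgaVav-Cre library was thus above every wildtype library, with wildtype replicate 1 the highest of the wildtype libraries. Its log2 fold change of 0.58 (SE 0.155, 1.49-fold with a 95% interval of 1.16 to 1.92) was the largest of the 48. Its p of 0.00618 was also the smallest of the members, and the edgeR adjusted p over all loci was 0.407. A shorter locus of the same symbol on the opposite strand overlaps it. The log2 fold changes of the other 7 genes ran from 0.0033 (Prim1) to 0.27 (Pole2).

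The sliding clamp Pcna, the clamp loader subunits Rfc1 to Rfc5 and the single-strand binding subunits Rpa1 and Rpa2 form the next group. Pcna had the highest level per length of all members in OgaVav-Cre cells, at 65.8 ± 4.99 CPM per kb, and was at 54.6 ± 16.8 in wildtype cells (SD, n = 3), within the spread of Mcm6. Rpa2 (plus strand, chr4:132324247-132334667 in mm9) was at 64.4, 63.1 and 56.1 CPM in OgaVav-Cre and at 55.7, 34.1 and 37.8 CPM in wildtype libraries. The genotypes did not overlap, but OgaVav-Cre replicate 3 and wildtype replicate 1 nearly met. The log2 fold change of Rpa2 was 0.52 (SE 0.192, edgeR adjusted p = 0.439). Rpa1 was at 122.6, 144 and 133 CPM in OgaVav-Cre and at 129.6, 76.3 and 99.8 CPM in wildtype libraries, with a log2 fold change of 0.39 (SE 0.194, edgeR adjusted p = 0.517). Wildtype replicate 1 lay within the OgaVav-Cre range. Rfc2 was at 89.0, 96.8 and 72.9 CPM in OgaVav-Cre and at 78.9, 82.8 and 80.7 CPM in wildtype libraries. In contrast to most members, its wildtype libraries were nearly equal (CV 2.46%) and its OgaVav-Cre libraries were not (CV 14.1%). Rfc3 had a log2 fold change of -0.12 (SE 0.175).

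On the lagging strand, Fen1 trims the flaps of Okazaki fragments and Lig1 joins them. Fen1 (minus strand, chr19:10273622-10278659 in mm9) was at 106, 109 and 101 CPM in OgaVav-Cre and at 104, 59.1 and 56.5 CPM in wildtype libraries. Wildtype replicate 1 was level with the OgaVav-Cre libraries and the other wildtype libraries were far below them. The log2 fold change was 0.53 (SE 0.232, edgeR adjusted p = 0.477). Fen1 overlaps 1810006K21Rik on the opposite strand, so reads at this locus may be split between both. Lig1 had a log2 fold change of 0.38 (SE 0.218).

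The 4 genes of nucleotide supply encode thymidylate synthase (Tyms), thymidine kinase (Tk1) and the subunits of ribonucleotide reductase (Rrm1 and Rrm2). Tyms (minus strand, chr5:30384078-30400165 in mm9) was at 52.4, 54.2 and 55.5 CPM in OgaVav-Cre and at 51.5, 27.5 and 33.8 CPM in wildtype libraries. The OgaVav-Cre libraries were almost equal (CV 2.86%), and wildtype replicate 1 was just below them. The log2 fold change was 0.52 (SE 0.221, edgeR adjusted p = 0.465). Rrm2 had the largest CV of all members, 58.7% in wildtype cells. It was at 108, 95.4 and 162 CPM in OgaVav-Cre and at 194, 68.8 and 84.9 CPM in wildtype libraries. OgaVav-Cre replicate 3 stood above the other OgaVav-Cre libraries here, and the log2 fold change was 0.07 (SE 0.391).

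The regulators of the G1/S transition, the cyclin E genes Ccne1 and Ccne2 and the transcription factor genes E2f1 and E2f2, held the members least alike within OgaVav-Cre. E2f2 was at 57.5, 31.9 and 98.3 CPM in OgaVav-Cre and at 105, 32.5 and 76.9 CPM in wildtype libraries. Its spread was thus as wide in OgaVav-Cre (CV 53.5%) as in wildtype cells (CV 51.1%). Ccne1 was at 14.6, 9.93 and 14.8 CPM in OgaVav-Cre and at 19.3, 6.85 and 9.14 CPM in wildtype libraries. OgaVav-Cre replicate 3 was over 1.3 times both other OgaVav-Cre libraries for E2f2, Ccne2 and Rrm2, and for no other of the 48 members (14.3% of all loci). E2f1 was nearly level in OgaVav-Cre, with a CV of 5.22%, and had a log2 fold change of 0.31 (SE 0.181).

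The 4 genes that act on chromatin in S phase are Uhrf1, which maintains DNA methylation, Slbp, which binds the stem-loop of histone mRNA, and Chaf1a and Chaf1b of the histone chaperone CAF-1. Uhrf1 followed the wildtype pattern, with a CV of 5.89% in OgaVav-Cre and 45.3% in wildtype cells. Chaf1a was steady, at 112, 103 and 102 CPM in OgaVav-Cre and at 104, 78.2 and 92.0 CPM in wildtype libraries. The log2 fold changes of the 4 genes ran from 0.15 (Slbp) to 0.24 (Chaf1b).

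**Figure D2:**
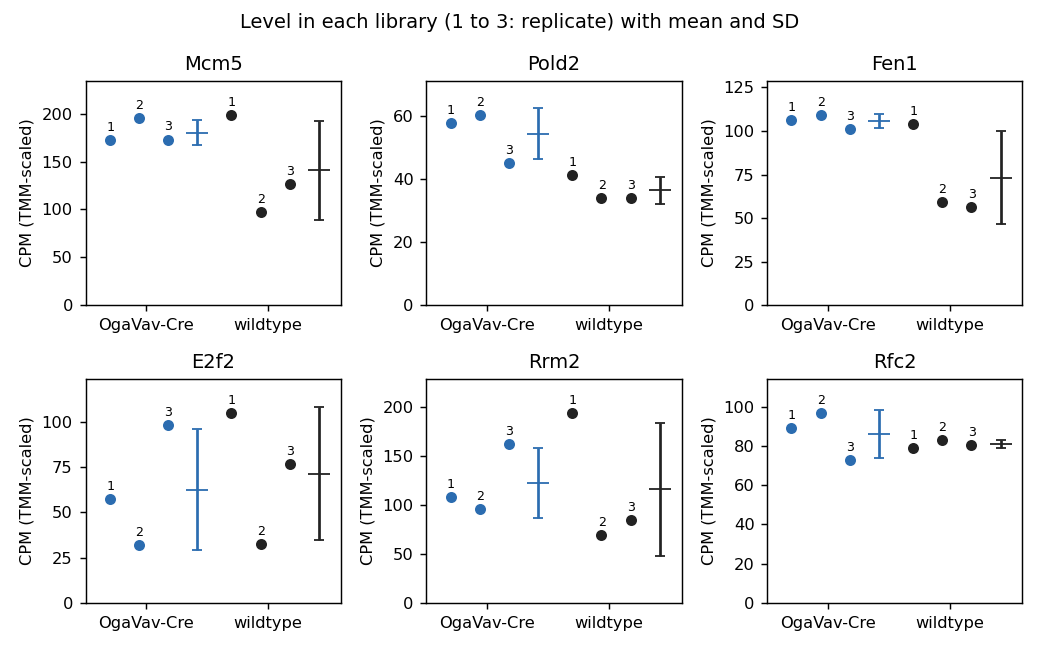
TMM-scaled CPM of 6 members in each library; points are libraries numbered by replicate, and the bar beside them is the mean with the SD (n = 3). Mcm5 and Fen1 are level in OgaVav-Cre and split in wildtype cells, Pold2 does not overlap between genotypes, E2f2 and Rrm2 spread in both, and Rfc2 is the reverse case with a wildtype CV of 2.46%.

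The second question was whether the genotypes differed. No member passed the test. 0 of 48 were below an adjusted p of 0.05 in edgeR's quasi-likelihood test, with or without a log2 fold change above 1 or below -1, where 7 of 22032 loci (0.0318%) passed. DESeq2's Wald test also called 0 members at an adjusted p below 0.05, with a smallest of 0.0989 (Pold2), where 218 of 22032 loci (0.989%) passed. At an unadjusted p below 0.05, 3 members were higher in OgaVav-Cre (Pold2, Rpa2 and Tyms), against 4.38% of all loci, and 0 were lower, against 6.27%. The libraries of the genotypes did not overlap for the same 3 members, all higher in OgaVav-Cre, against 7.5% of all loci, and for 0 members in the other direction, against 9.97%. A permutation test of 1 gene with 3 mice a group cannot go below an exact two-sided p of 0.1.
The point estimates leaned 1 way. The log2 fold change was above 0 for 43 members and below 0 for Orc1, Gins2, Gins3, Rfc3 and E2f2, with a median of 0.22 over the members and 0.0041 over all loci. With libraries scaled by their raw totals, which moved the median of all loci to -0.11, 33 members were above 0 and 15 below, with a median of 0.10. The 95% interval of the log2 fold change lay within -1 and 1 for 41 members, so changes of 2-fold or more were outside it for these. For Gmnn, Mcm10, Rfc4, Fen1, Tyms and Ccne1 it reached above 1, and for E2f2 it ran from -1.32 to 0.94.

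**Figure D3:**
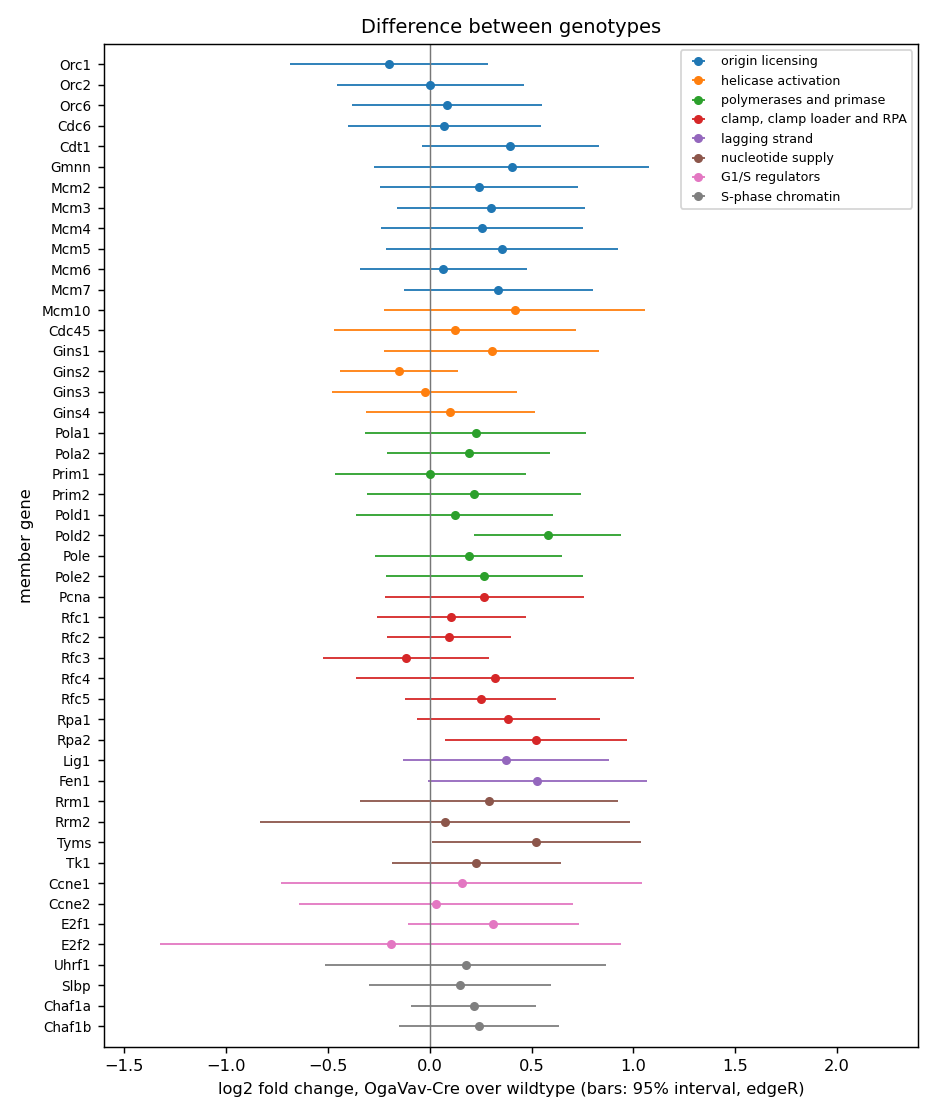
Log2 fold change of OgaVav-Cre over wildtype for each member with its 95% interval from edgeR, colored by role (n = 3 per genotype). 43 of the 48 estimates are above 0, and only the intervals of Pold2, Rpa2 and Tyms do not include 0, before adjustment over all loci.

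The size of this lean depended on which wildtype library was left out. Without wildtype replicate 1 the median of the members was 0.48, with 0.0044 over all loci. In that fit 32 members were higher in OgaVav-Cre at an unadjusted p below 0.05 (edgeR), against 7.4% of all loci, with 0 lower, against 7.13%. Still 0 members passed the adjusted p, of which the smallest was 0.185 (Fen1, edgeR). Without wildtype replicate 2 the median was 0.087 and 31 members were above 0. Without wildtype replicate 3 it was 0.14 with 36 members above 0. In each of these fits 1 member was higher at an unadjusted p below 0.05 (edgeR), against 3.62% and 2.19% of all loci. In both, 0 were lower, against 3.89% and 3.20%. Leaving out an OgaVav-Cre library kept the median between 0.21 and 0.25.

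**Figure D4:**
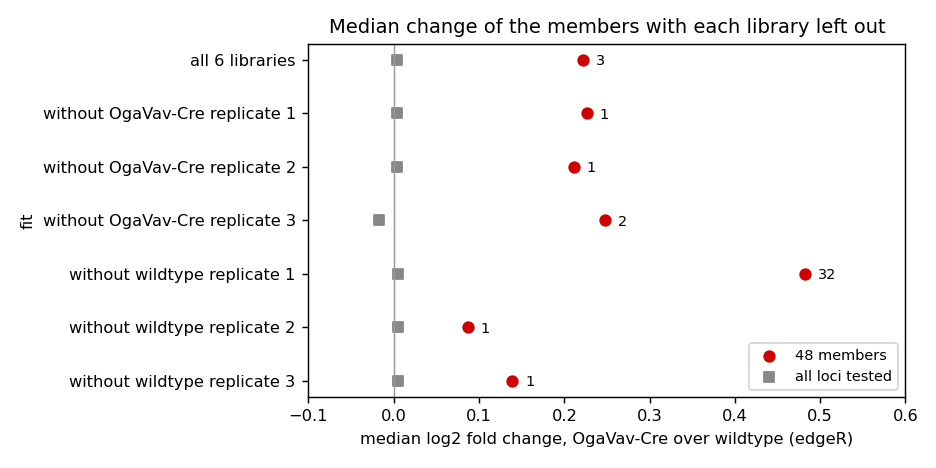
Median log2 fold change of OgaVav-Cre over wildtype with all 6 libraries and with each left out, for the 48 members (red circles) and all loci tested (grey squares); the number beside a circle counts the members higher in OgaVav-Cre at an unadjusted p below 0.05. The members' median moves to 0.48 without wildtype replicate 1 and to 0.087 without wildtype replicate 2, whereas that of all loci stays near 0.

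Other genes of the cell cycle were compared in the same libraries. Of 39 further replication genes, 0 passed the adjusted p, with a median log2 fold change of 0.13 and 27 above 0. The smallest p was that of Pole3, a small subunit of polymerase epsilon, with a log2 fold change of 0.61 (SE 0.184, edgeR adjusted p = 0.412). Rrm2b, a p53-regulated subunit of ribonucleotide reductase, was at -0.46 (SE 0.208), and Ssrp1, a subunit of the histone chaperone FACT, at 0.34 (SE 0.156). Wildtype replicate 1 was the highest wildtype library for 35 of these 39 genes.
Of 25 further genes of G1/S control, 0 passed the adjusted p, with a median of 0.025 and 13 above 0. The smallest p-values were those of the D cyclin genes Ccnd1 and Ccnd2 and of Cdk6, a kinase that D cyclins bind. Ccnd1 was at 0.86 (SE 0.269, edgeR adjusted p = 0.412) and Ccnd2 at 0.51 (SE 0.187, edgeR adjusted p = 0.439), and Cdk6 was at -0.56 (SE 0.196, edgeR adjusted p = 0.426).
The 22 mitosis genes showed the same split of libraries as the members. Wildtype replicate 1 was the highest of all 6 libraries for 22 of 22, and the medians against the own genotype were 0.85, -0.50 and -0.35 in wildtype replicates 1, 2 and 3. In OgaVav-Cre they lay between -0.0020 and 0.033. The median CV was 5.66% in OgaVav-Cre and 56.0% in wildtype cells, and 0 of the 22 passed the adjusted p. The median log2 fold change of the 22 genes was 0.13, with 15 above 0 and 7 below. The smallest p among them was that of the mitotic kinase gene Aurka, at 0.36 (SE 0.354), followed by Cdk1 at 0.29 (SE 0.319) and by Cdc20, an activator of the anaphase-promoting complex, at 0.27 (SE 0.314).

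Markers of LSK cells and of other cells also differed between libraries. Kit, the receptor on which the cells were sorted, was at 432.9, 542 and 251 CPM in OgaVav-Cre and at 372, 602 and 498 CPM in wildtype libraries, and was present in all 6. Ly6a, which encodes Sca-1, was at 218, 114 and 100.3 CPM in OgaVav-Cre and at 48.5, 122 and 42.3 CPM in wildtype libraries. Relative to the own genotype, the 8 LSK markers had a median of -0.37, 0.50 and 0.053 in wildtype replicates 1, 2 and 3. The 10 B cell precursor markers had a median of 0.81, -1.13 and 0.35. Wildtype replicate 1 thus combined the highest replication levels with the lowest LSK marker levels of its genotype, for 7 of 8 markers, and wildtype replicate 2 was the highest for 7 of 8. In OgaVav-Cre replicates 1, 2 and 3 the LSK medians were 0.21, 0.47 and -0.64. The B cell precursor medians there were -0.32, -0.82 and 1.17, so both lists varied between libraries of each genotype. The B cell precursor markers summed to 572 to 1442 CPM in OgaVav-Cre and to 569.5 to 1672 CPM in wildtype libraries.
The 10 markers of lineage-positive cells summed to 134 to 619 CPM in OgaVav-Cre, with the most in replicate 3, and to 143 to 394 CPM in wildtype libraries. Of these only Ly6g was at 0 in a library, wildtype replicate 1, and the B cell gene Ms4a1 reached 228 CPM in OgaVav-Cre replicate 3. The sums of the 8 plasma cell markers were 1740 to 12340 CPM in OgaVav-Cre libraries, with the most in replicate 1. In wildtype libraries they were 1810 to 8118 CPM, with replicate 2 the highest wildtype library for 8 of 8 markers. The sums of the 8 erythroid markers were 351 to 2515 CPM in OgaVav-Cre and 539 to 831 CPM in wildtype libraries. Those of the 8 granulocyte and monocyte markers were 682 to 2249 CPM in OgaVav-Cre and 1226 to 1474 CPM in wildtype libraries. The sums of these last lists were highest in replicate 3 of each genotype, but counts by gene differed from the sums in wildtype cells. Wildtype replicate 1 was the highest wildtype library for 6 of 8 erythroid markers, and replicate 3 for 2. Relative to the own genotype, the erythroid medians were 0.55, -0.36 and -0.19 in wildtype replicates 1, 2 and 3. Those of the granulocyte and monocyte markers were 0.24, -0.14 and 0.13. The part of these markers in the members' levels was not tested. In such bulk samples, fewer cells in S phase and less RNA per cell cannot be told apart. By DAPI staining, the paper found the cell cycle profiles of wildtype and OgaVav-Cre LSK cells similar. It does not state whether the stained cells came from the sequenced mice.

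**Figure D5:**
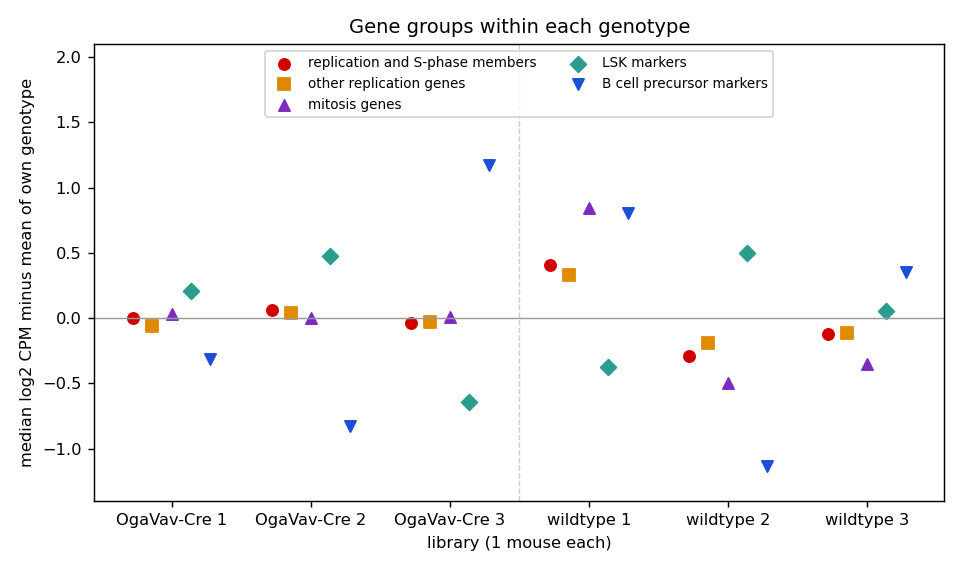
Median log2 CPM (with 0.5 added) of 5 gene groups in each library, minus the mean of the own genotype gene by gene; each symbol is a group of 48 members, 39 other replication genes, 22 mitosis genes, 8 LSK markers or 10 B cell precursor markers. Members and mitosis genes lie near 0 in all OgaVav-Cre libraries and reach 0.41 and 0.85 in wildtype replicate 1. The marker groups spread in both genotypes.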

How the data were processed

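Poly(A) RNA of at least 20000 sorted LSK cells per mouse was sequenced; the labels name CASAVA 1.8.2 and mm9. The authors deposited raw counts of reads per locus and RPKM made from them with Genomatix; the version, the annotation and the use of strand are not given in the sources used here. The columns of the authors' fold changes and p-values, and 6 columns of normalized expression, were not used.

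The symbol was matched exactly, and for 4 members with a repeated symbol the longest locus was taken. Members and lists were chosen with earlier results of these data known. Named are all members, Mgea5, the 3 genes with the smallest p of each other gene list, and markers that differed over 2-fold within a genotype. Values per library are given for the 6 members with the smallest p, 3 with the largest and 3 with the smallest CV, and Mcm2 to Mcm7. Genotype and replicate came from the labels.

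The test of counts was edgeR 4.0.16 under R 4.3.3 (TMM, filterByExpr, quasi-likelihood test, Benjamini-Hochberg adjustment over 22032 loci). It was also run on counts simulated with the means and dispersions of these loci. Alternatives were other scalings and filters, DESeq2 1.42.0, limma 3.58.1 on log2(RPKM + 0.1 or 1), a replicate block and each library left out. Of the members, 25 overlap a locus on the opposite strand, and the limit given for Fen1 holds for all 25. By mean reads per library of the overlapping loci, the first were Rfc4 with Eif4a2 (7888), Gins2 with Gse1 (3755) and Orc6 with Vps35 (3252). Marker lists of 8 to 10 genes each were taken from common knowledge of the cell types.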

Additional observations from a re-analysis of the deposited data

How the results depend on the processing

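Under 15 alternatives, the count of members past the adjusted p stayed at 0, and 673 of 720 fold changes kept their direction. The count higher at an unadjusted p below 0.05, 3 as reported, was 1 with raw library totals (1.77% of all loci), 6 with no filter on low counts (3.64%) and from 1 to 32 with a library left out (2.19 to 7.4%). With the replicate number as a block it was 5 (5.75%). The labels give these numbers no shared litter or day, so they were not read as pairs. Over all loci, the deviations of libraries numbered 1, 2 and 3 correlated between genotypes at -0.089, 0.31 and 0.38. Libraries of unlike number correlated at -0.44 to 0.26. Over the members, the same-numbered libraries correlated at -0.034, 0.72 and 0.15. Whether the numbers share a source was not tested. The median log2 fold change ranged from 0.087 to 0.48 with a library left out. With raw library totals the median deviation was -0.10 in OgaVav-Cre replicate 1 and 0.045 in replicate 3.

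The sign changed for 17 members, although each member had at least 132 reads in every library. With raw library totals the log2 fold change was -0.11 for Orc2, -0.027 for Orc6, -0.051 for Cdc6, -0.056 for Mcm6, -0.010 for Gins4, -0.11 for Prim1, -0.013 for Rfc1, -0.029 for Rfc2, -0.034 for Rrm2 and -0.073 for Ccne2. With at least 10 reads in every library it was -0.0018 for Orc2 and -0.0023 for Prim1. With RPKM it was -0.038 for Orc2, -0.047 for Prim1 and -0.021 for Ccne2 at a pseudocount of 0.1 and -0.036 for Orc2, -0.044 for Prim1 and -0.020 for Ccne2 at 1. With a library left out it ranged from -0.10 to 0.71 for Ccne1, from -0.24 to 0.36 for Ccne2, from -0.052 to 0.47 for Cdc45, from -0.086 to 0.34 for Cdc6, from -0.68 to 0.20 for E2f2, from -0.18 to 0.13 for Gins3, from -0.034 to 0.28 for Gins4, from -0.025 to 0.25 for Mcm6, from -0.13 to 0.24 for Orc2, from -0.031 to 0.32 for Orc6, from -0.055 to 0.35 for Pold1, from -0.12 to 0.23 for Prim1, from -0.0093 to 0.27 for Rfc1, from -0.21 to 0.015 for Rfc3, from -0.19 to 0.67 for Rrm2 and from -0.080 to 0.58 for Uhrf1. The cause was not tested.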
